A study of Cervus nippon with 12 samples.

Results

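Antler chondrocytes (CC) were compared with uninduced reserve mesenchyme cells (RMCs, CP_0) of sika deer (Cervus nippon) over all miRNAs listed for small RNA libraries of these cells. The libraries were taken by the cell type and the day of induction in their labels, which gives 3 CC and 3 CP_0 libraries, 6 of the 12 in the series. The other 6 are RMCs after 7 (CP_7) and 14 days (CP_14) in chondrogenic medium. RMCs were grown in DMEM with 10% fetal bovine serum at 37 °C and 5% CO2, and CP_0 stands for 0 days of induction. The labels give antler as the tissue and wild type as the genotype of all cells, and no culture conditions for the chondrocytes. Whether libraries with the same number share an animal is not stated, so the p-values measure only the spread between these libraries. The comparison addresses which miRNAs differ between the cartilage cells of the antler and its mesenchymal progenitors before any induction.

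A miRNA is cut from a hairpin precursor, and either arm of the hairpin, named 5p or 3p, can be loaded into the silencing complex, where it lowers the stability and translation of matching mRNAs. Antlers grow from a mesenchyme at their tip whose cells become chondrocytes, and the cartilage is later replaced by bone. In mammalian cartilage miR-140, which lies in an intron of WWP2, is the best known miRNA, and miR-455, in an intron of the collagen gene COL27A1, is another, whereas miR-143 and miR-145 are best known from smooth muscle and other mesenchymal cells.

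The values deposited for each library are RPM, the reads of a miRNA scaled to 1000000 in its library, and they gave back whole reads for 545 names, 475 taken from cattle and 70 of the form novel_ and a number. The CC libraries held 10256572, 9714090 and 9970138 reads and the CP_0 libraries 2973442, 4097304 and 3636580, a mean 2.80 times as deep in CC. A miRNA without a read may therefore be present at up to 0.309 RPM in CC replicate 2 and up to 1.01 RPM in CP_0 replicate 1 (3 reads). This limit covers counting error alone, since reads sequenced without molecular identifiers need not be independent molecules. A single miRNA, miR-21-5p, took 76.9%, 75.7% and 72.9% of the reads in the CC libraries and 59.8%, 61.7% and 59.5% in the CP_0 libraries. The difference of 14.9 percentage points had p = 0.1 in an exact two-sided permutation test, the smallest p that 3 libraries against 3 allow. Because a larger share of 1 miRNA lowers the RPM of all others, composition factors (TMM) were applied, 0.868 ± 0.0708 in CC and 1.16 ± 0.0655 in CP_0 (SD, n = 3). At 1 RPM or more, 254, 262 and 264 miRNAs were detected in the CC libraries and 308, 274 and 294 in those of CP_0 (exact permutation p = 0.1). The order depends on the level, since 1 RPM is fewer reads in CP_0. At 10 reads or more the numbers were 262, 262 and 264 in CC and 230, 239 and 237 in CP_0, and with any read 386, 381 and 393 and 384, 369 and 389. The 10 most abundant miRNAs took 93.7%, 93.5% and 93.0% of the reads in CC and 90.9%, 91.9% and 91.4% in CP_0, and the miRNAs named novel_ at most 0.0154% in any of the 6 libraries (exact permutation p = 0.1 for both).

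CP_0 replicate 3 stood apart from the other libraries of its group. Among 198 miRNAs with 30 reads or more in a CP_0 library, 7 differed over 4-fold in RPM between replicate 3 and both others, all of them higher in replicate 3, against 0 for replicate 1 and 0 for replicate 2. The 3 CC libraries had 0 such miRNAs among 217. The largest gap was that of miR-486, a miRNA of red blood cells, with 7, 20 and 8312 reads in CP_0 and 8345, 7885 and 7706 in the chondrocytes. Its neighbour in blood, miR-451, had 27, 29 and 6933 reads in CP_0 and 6619, 6293 and 6119 in CC. For miR-34c the reads were 49, 47 and 273 in CP_0 and 249, 265 and 248 in CC. The remaining 4 were miR-363, miR-206, miR-142-5p and miR-182, all 7 being picked after their values were seen. The reads of CP_0 replicate 3 were of the order of those in each CC library although the CC libraries were deeper, and CP_14, with 7992, 7615 and 7363 reads of miR-486, also lay at this level, while CP_7 had 9, 133 and 23. The CP_7 libraries were shallower, with 769655, 1032029 and 539455 reads in total, against 2791559, 3024668 and 3864900 in CP_14. Where these reads came from was not tested. Over the miRNAs tested, the correlation of log2 values was 0.994 between CP_0 replicates 1 and 2 and 0.964 and 0.965 between each of them and replicate 3. With the CC libraries it was 0.964, 0.968 and 0.970 for CP_0 replicate 3, and 0.939 to 0.955 for CP_0 replicates 1 and 2, so that replicate 3 was as close to CC as to its own group. These are descriptions across miRNAs that are not independent. Results are given for all 6 libraries, and where the call of a list member changed also without CP_0 replicate 3. Calls without it of the 7 miRNAs that set it apart restate that choice and are not used. The same holds for the calls then gained by miR-138, miR-141, miR-150, miR-154b, miR-223 and miR-542-5p, which passed the filter on low counts through 1 group only. Other calls gained without replicate 3 also depend on that choice and are given as description only.

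**Figure D1:**
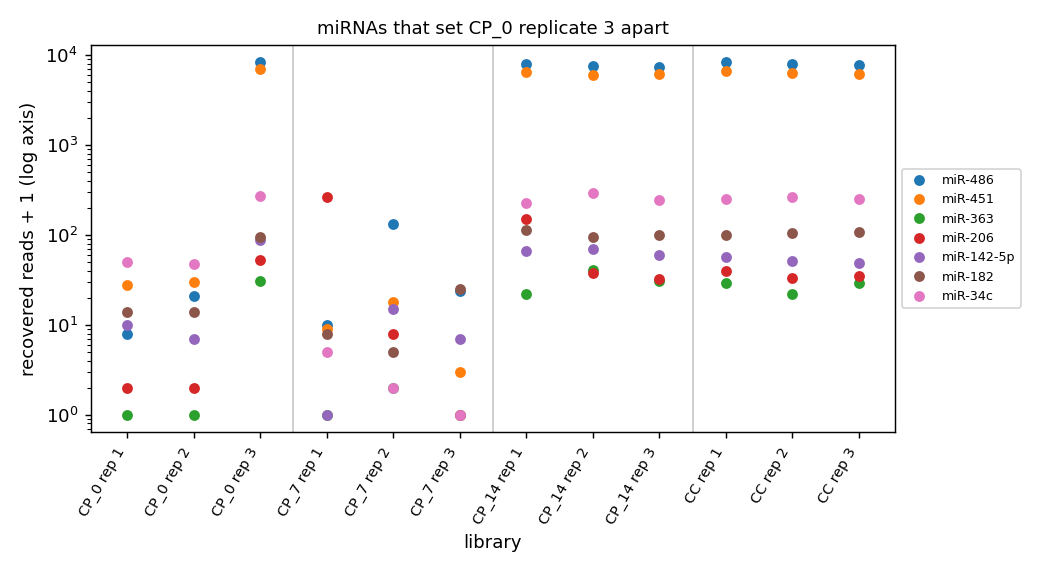
Recovered reads plus 1 (log axis) of the 7 miRNAs that differed over 4-fold between CP_0 replicate 3 and both other CP_0 libraries, in each of the 12 libraries, with 1 point for each miRNA. The points of miR-486 stand at 7, 20 and 8312 for CP_0 and at 8345, 7885 and 7706 for CC before 1 is added.

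Between chondrocytes and uninduced RMCs, 133 of 260 miRNAs tested were differentially expressed (51.2%) by limma at an adjusted p below the threshold of 0.05. Of these, 71 were higher in CC (27.3%) and 62 lower (23.8%). The highest called rises in CC were those of miR-19b, miR-342, miR-19a, miR-500 and miR-7, and the deepest falls those of miR-2904, miR-2887, miR-184, miR-2285bp and miR-127. The filter on low counts asked for 1.45 RPM in at least 3 libraries. Of the falls, 14 reached it in all 3 libraries of CP_0 and not in all 3 of CC, and of the rises 4 did so in CC and not in CP_0. A miRNA that passed only through the group where it is high is selected for a difference, and counts of lists with such members are no support for a change of the list. No overlap between the groups was seen for 156 of the 260 (60%). Most changes were small, and 21 of the rises and 30 of the falls reached 2-fold on the log2(RPM + 1) scale, on which the change of a miRNA with few reads comes out too small. Without CP_0 replicate 3, 164 of 282 were called, 84 higher and 80 lower, the former with the 7 that set it apart, and 12 of the 164 were tested only then. Of the 71 rises 64, and of the 62 falls 61, were called in the same direction without that library.

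The balance between rises and falls followed the scaling. The median log2 fold change of all 260 was 0.0554 with TMM factors, 0.00852 with RLE factors, -0.32 with upper-quartile factors, -0.33 by library size without a factor, and 0.32 with miR-21-5p excluded from the totals. The calls split into 66 higher and 71 lower with RLE, 33 and 113 with upper-quartile factors, 30 and 112 by library size alone and 110 and 38 without miR-21-5p. Among the rises 59 of 71, and among the falls 61 of 62, had the same sign under all 5 scalings. Called in that direction under all 5 were 30 rises and 38 falls. Small changes therefore have no direction apart from the scaling, and the medians of the lists below can be read beside 0.0554 and their counts beside 27.3% higher and 23.8% lower.

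**Figure D2:**
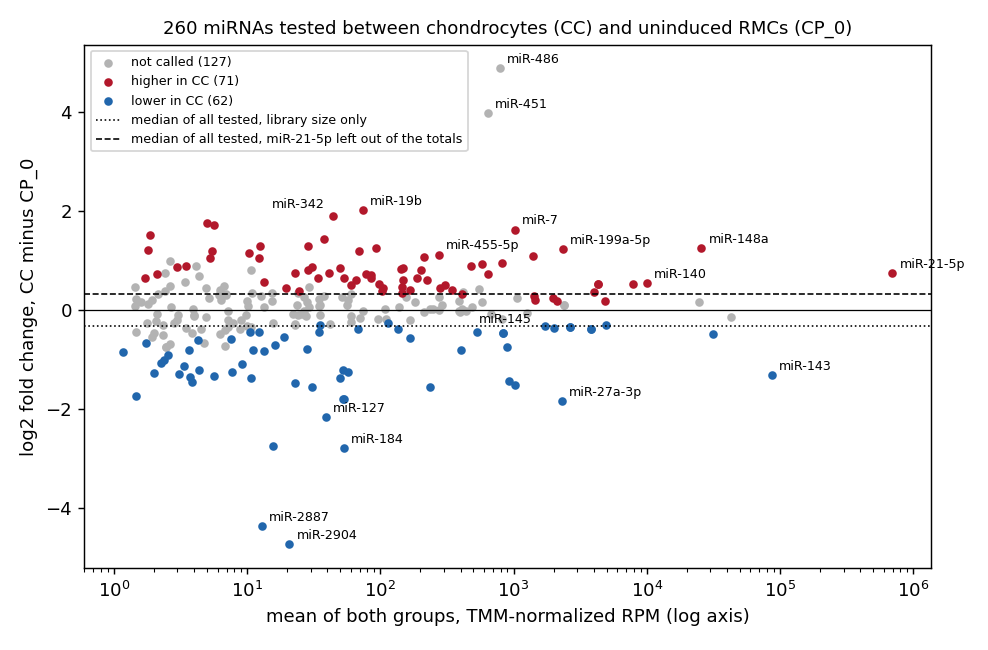
Each point is 1 of the 260 miRNAs tested, with the mean of both groups in TMM-normalized RPM (log axis) against the log2 fold change of CC against CP_0. The 71 called higher and 62 called lower stand on either side of 0, and dotted and dashed lines mark where the median of all tested lies with library size only (-0.33) and with miR-21-5p excluded from the totals (0.32).

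The most abundant miRNAs were largely shared by both cell types. The 1st and 2nd in both were miR-21-5p, which is abundant in many dividing and cultured cells, and miR-143. In TMM-normalized RPM, miR-21-5p stood at 948227, 894950 and 769925 in the CC libraries and 496450, 570775 and 503076 in those of CP_0. Each CC library lay above each CP_0 library, and the log2 difference was 0.73 (standard error, SE, 0.10, adjusted p = 0.00072 by limma). The other 3 in the first 5 of CC were let-7i, miR-148a and miR-27b, and those of CP_0 were let-7i, miR-27b and miR-100. For let-7i the values were 43299, 40495 and 38154 in CC and 44891, 48616 and 41221 in CP_0, which overlapped (-0.14 on the log2 scale, adjusted p = 0.18 by limma), and without CP_0 replicate 3 it was called lower in CC (-0.23). Likewise miR-100 was not called, with 26220.3, 25618 and 26409 in CC and 24230.5, 24041 and 22455 in CP_0 (0.15 on the log2 scale, adjusted p = 0.067 by limma), although these values did not overlap.

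Of the 5 miRNAs on the list of cartilage miRNAs, 4 were higher in CC and 0 lower (27.3% and 23.8% of all tested), with a median log2 fold change of 0.80, against 0.0554 over all tested. The count higher was 3 with upper-quartile factors or library size only, with miR-193b then lower, 4 with RLE factors and 5 without miR-21-5p in the totals. The label of both cell types can be read against miR-140, which was the 7th most abundant miRNA in each. Its TMM-normalized RPM was 12239, 11554 and 11624 in CC and 8591, 8469 and 7470.4 in CP_0. All 3 CC libraries were above all 3 CP_0 libraries, by a log2 fold change of 0.53 (SE 0.0708, adjusted p = 0.0006 by limma). This call was lost with upper-quartile factors (0.12) and with library size only (0.12). A larger difference was seen for miR-455-5p, at 402, 370.0 and 354 in CC and 183, 181 and 157 in CP_0. Again no CC library came down to the level of CP_0 (log2 fold change 1.11, SE 0.0899, adjusted p = 3.4e-05 by limma), and the sign was kept under all 5 scalings. The other arm, miR-455-3p, had 39.7, 34.1 and 36.5 in CC and 17.3, 22.6 and 22.1 in CP_0, and rose by 0.81 (adjusted p = 0.002 by limma). The 4th rise was that of miR-320a, at 0.80 on the log2 scale, and miR-193b, at 0.00608, was not called. In bulk RNA, more cells of a kind and more of a miRNA per cell cannot be told apart.

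The 10 largest rises included miR-19b and miR-19a of the miR-17 to 92 cluster, a polycistron known for promoting proliferation. Of 15 listed members of the cluster and its paralogues 12 were tested. Of these, 6 were higher in CC, 1, miR-92b, was lower and 5 were not called (27.3% higher and 23.8% lower among all tested), with a median log2 fold change of 0.67 beside 0.0554. With library size only or upper-quartile factors 4 were higher and 1 lower, with RLE 6 and 1, and without miR-21-5p in the totals 9 and 0. The uncalled miR-363 passed the filter through CC only and is among the 7 that set CP_0 replicate 3 apart. Over the members that reached the filter in both groups 6 were higher and 1 lower (median 0.60). With no filter 6 of all 15 were higher and 0 lower (median 0.42). miR-19b had TMM-normalized RPM of 139, 116 and 101 in CC and 24.3, 28.4 and 33.3 in CP_0. The CC libraries all lay above those of CP_0, and the log2 difference was 2.01 (SE 0.16, adjusted p = 3.2e-05 by limma). The related miR-19a, with 65, 77 and 72 reads in CC and 5, 7 and 10 in CP_0, rose by 1.75 (SE 0.21, adjusted p = 0.00031 by limma). Of 4 tested members with the miR-17 seed 3 were higher. Among them miR-20a stood at 690.1, 633 and 550.4 in CC and 315, 386 and 317 in CP_0 and rose by 0.88 (adjusted p = 0.00055 by limma), as did miR-93 by 1.07 (adjusted p = 0.00026 by limma) and miR-17-5p by 0.60 (adjusted p = 0.0024 by limma), whereas miR-106b was not called (0.25). For miR-92a the values were 636, 639.7 and 598 in CC and 409, 386 and 642 in CP_0, so that the groups overlapped through CP_0 replicate 3. It was not called over the 6 libraries (0.42, adjusted p = 0.08 by limma) and was called higher in CC without that library (0.62). Likewise miR-25, with 1184, 1489 and 1859 reads in CP_0, was called higher only without that library (0.28). CP_0 replicate 3 was the highest of its group for both miR-92a and miR-25. These calls thus restate leaving it out and are no support for a change of the list.

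Outside that cluster, miR-342, which lies in an intron of EVL, had 85.0, 67.6 and 59.4 TMM-normalized RPM in CC and 16.8, 19.9 and 17.4 in CP_0. It was higher in every CC library, with a log2 fold change of 1.90 (SE 0.15, adjusted p = 3.3e-05 by limma). miR-7, a brake on growth factor signalling in several tissues, stood at 1857, 1560.3 and 1208 in CC and 376, 660.3 and 489 in CP_0. The groups did not overlap, though both spread widely, and the log2 difference was 1.61 (SE 0.22, adjusted p = 0.00065 by limma). Both arms of the miR-365 hairpin rose to a like extent, by 1.29 for the 5p arm and 1.25 for the 3p arm (SE 0.17 and 0.20, adjusted p = 0.00059 and 0.0013 by limma). The 5p arm had 47.6, 37.0 and 37.7 in CC and 14.8, 19.9 and 14.0 in CP_0, and the 3p arm 147, 135 and 112 and 41.6, 72.0 and 53.7. Of the 10 largest rises, miR-19a and miR-500 had the fewest reads, with 94, 65 and 78 reads of miR-500 in CC and 5, 14 and 8 in CP_0 (log2 fold change 1.72, SE 0.26, adjusted p = 0.001 by limma). For miR-6119-5p the values were 64.3, 53.1 and 48.3 in CC and 18.4, 26.0 and 16.05 in CP_0, with every CC library above every CP_0 library (1.43, adjusted p = 0.00062 by limma).

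The list of miR-148 and miR-152, which share a seed, moved in both directions. Among its 5 tested members 2 were higher, 2 lower and 1 was not called, with a median of 0.0198, and the split was 1 higher and 3 lower with library size only or upper-quartile factors, 2 and 2 with RLE and 2 and 0 without miR-21-5p in the totals. miR-148a was the most abundant of the large rises, at 36479, 35944 and 35474 TMM-normalized RPM in CC and 15662, 15981 and 14159.9 in CP_0. The libraries of each group were close together and far from those of the other group, with a log2 fold change of 1.24 (SE 0.0651, adjusted p = 5.7e-06 by limma). In contrast miR-148c, whose reads equal those of miR-152 within 1% so that the names cannot be told apart, fell to 639.9, 717 and 738 in CC from 1069, 924 and 908 in CP_0 (-0.47, adjusted p = 0.003 by limma). miR-148c was no longer called without miR-21-5p in the totals (-0.20). The 2 falls of the list are miR-148c and miR-152, and so count the same reads under 2 names.

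**Figure D3:**
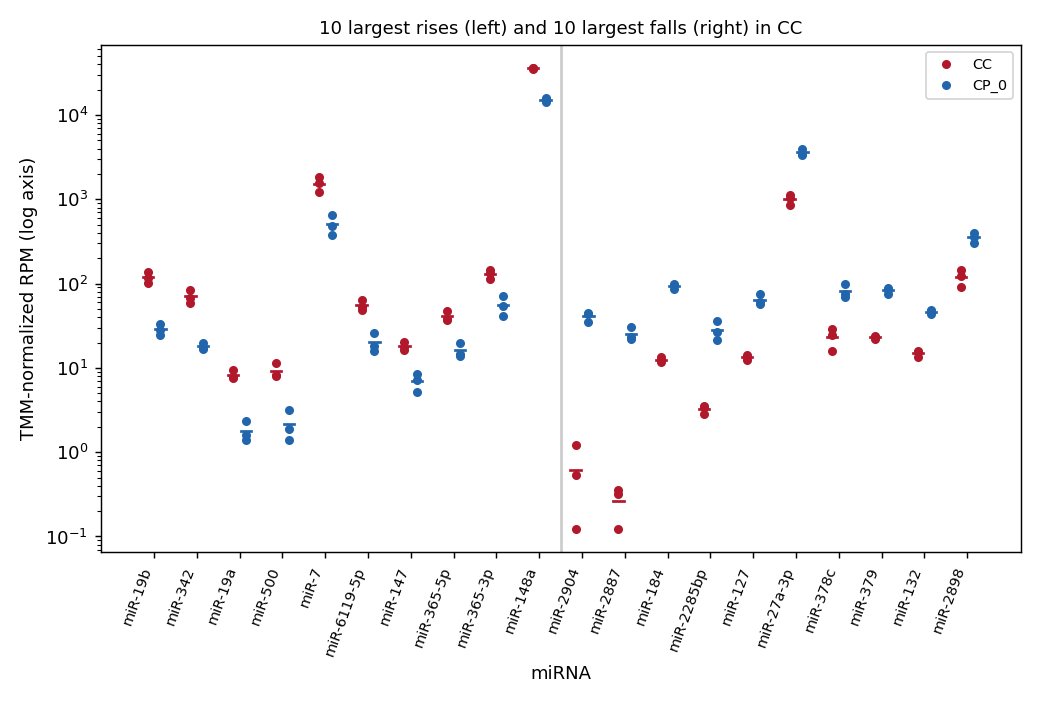
TMM-normalized RPM (log axis) of the 10 largest rises and the 10 largest falls in CC among miRNAs with a mean of 50 reads in a group, with 1 point for each library and a bar at the mean of its group. The points of both groups do not overlap for any of the 20 miRNAs, which were chosen for this, and miR-2904 and miR-2887 are near 0 in CC with means of 0.618 and 0.267.

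The largest falls, those of miR-2904 and miR-2887, belonged to names that overlap other RNA, such as fragments of ribosomal or transfer RNA. Both are selected for a difference by the filter, so their size is no support for a change of the list. Of 7 listed names 6 were tested, 3 of which (miR-2904, miR-2887 and miR-1246) passed the filter through CP_0 only. The other 3, miR-1260b, miR-2478 and miR-4286, were lower in CC, and stayed lower under each of the other 4 scalings. miR-2904 had 10, 1 and 5 reads in the CC libraries and 160, 154 and 185 in the shallower CP_0 libraries. For miR-2887 these were 3, 1 and 3 and 109, 104 and 96. Both were close to absent from every CC library. With so few reads the fitted log2 fold changes of -4.74 and -4.37 depend on the pseudocount. Their p-values are not used, since both names passed the filter through CP_0 only. The share of the reads was 87.2 times as high in CP_0 for miR-2904 (95% exact Poisson interval 53.2 to 154, counting error only) and 123 times for miR-2887 (59.2 to 309.6). Of the 16 reads of miR-2904 in CC, 10 were in replicate 1, and with 1 CC library left out its ratio ran from 62.8 without replicate 2 to 153 without replicate 1, and that of miR-2887 from 97.3 without replicate 2 to 144 without replicate 3. Smaller falls were those of miR-1260b (-1.47, adjusted p = 0.0033 by limma) and miR-2478 (-1.23, adjusted p = 0.0028 by limma). Summed over the list, the RPM was 29.1, 47.8 and 59.1 in CC and 269.7, 175 and 219.7 in CP_0, and miR-2478 was its most abundant name. Whether differences in RNA fragmentation had a part in these falls was not tested.

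Of the other large falls, miR-184, best known from the cornea and other epithelia, had TMM-normalized RPM of 11.7, 13.6 and 12.4 in CC and 97.8, 96.4 and 85.6 in CP_0. Its values lay far apart and were even within each group, with a log2 fold change of -2.80 (SE 0.11, adjusted p = 2.5e-06 by limma). miR-2285bp, of a large family of cattle miRNAs, had 3.48, 3.41 and 2.86 in CC and 21.5, 36.1 and 26.98 in CP_0 (-2.75, SE 0.21, adjusted p = 2.6e-05 by limma). miR-378c, a relative of the metabolic miR-378, was at 15.9, 24.6 and 29.0 in CC and 98.6, 76.1 and 69.8 in CP_0 and fell by 1.797 on the log2 scale (adjusted p = 0.0005 by limma). The 4th, miR-2898, fell by 1.56 (adjusted p = 0.00022 by limma), from 401, 302 and 357 in CP_0 to 92.4, 124 and 144 in CC. None of these 4 overlapped between the groups, which was a condition of their choice.

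The imprinted DLK1-DIO3 locus, which holds a large cluster of miRNAs expressed from the maternal chromosome in mesenchymal and stem cells, was measured at low levels. Of 46 listed names 43 had a read and 11 passed the filter, 5 of them (miR-370, miR-382, miR-409b, miR-494 and miR-654) through CP_0 only. The 6 that reached the level in all libraries of both groups were lower, as were 48 of all 220 that did so, and under each other scaling 0 of the list were higher. With no filter 9 of 43 were lower and 0 higher, with a median log2 fold change of -0.33, beside 73 lower of 495 and a median of -0.0284 over all miRNAs in that fit. miR-127 had 113, 101 and 136 reads in CC and 269, 257 and 258 in CP_0. In TMM-normalized RPM this was 13.6, 12.3 and 14.4 in CC and 75.2, 58.0 and 60.01 in CP_0. Every CC library was lower, with a log2 fold change of -2.17 (SE 0.14, adjusted p = 1.1e-05 by limma). The same held for miR-379, at 22.0, 23.5 and 24.2 in CC and 88.8, 85.1 and 75.8 in CP_0 (-1.795, SE 0.11, adjusted p = 9.3e-06 by limma), and for miR-411a, at 31.7, 33.4 and 34.5 and 79.9, 83.3 and 80.7 (-1.27, SE 0.0909, adjusted p = 2.3e-05 by limma). Without CP_0 replicate 3, miR-494 was also called lower (-0.55). The 35 names that did not pass the filter had at most 12 reads in any of the 6 libraries compared.

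The lists of hypoxia and inflammation held both falls and a rise. miR-210, which hypoxia induces in most cells, was low in both cell types, with 37, 24 and 48 reads in CC and 45, 49 and 42 in CP_0. Its TMM-normalized RPM was 4.45, 2.92 and 5.08 in CC and 12.6, 11.1 and 9.77 in CP_0, without overlap, and the log2 difference was -1.25 (SE 0.21, adjusted p = 0.0019 by limma), lower under all 5 scalings. Of 6 listed miRNAs of inflammation 5 were tested, 1 was higher and 2 were lower in CC (median -0.38), against 27.3% and 23.8% of all tested. The numbers were 1 and 3 by library size only, 1 and 2 with upper-quartile factors or RLE and 2 and 2 without miR-21-5p. Over those that reached the filter in both groups 1 was higher and 1 lower (median -0.11). The riser was miR-147, a miRNA induced by Toll-like receptor signalling, at 16.5, 17.9 and 20.1 in CC and 7.26, 5.19 and 8.37 in CP_0 (1.29, SE 0.19, adjusted p = 0.00095 by limma). miR-132, a target of CREB, fell to 15.4, 13.5 and 16.1 in CC from 44.1, 48.3 and 46.8 in CP_0 (-1.57, SE 0.12, adjusted p = 2.6e-05 by limma), and miR-212 of the same cluster, which passed the filter through CP_0 only, was the other fall. The most abundant of the list, miR-155, had 691, 592 and 534 in CC and 509, 623 and 499.9 in CP_0, which overlapped (adjusted p = 0.32 by limma). Without CP_0 replicate 3, miR-146b was also called lower (-0.96), which made 1 higher and 3 lower, miR-212 among the latter. The reads of miR-146b were 71, 52 and 56 in CC and 57, 55 and 16 in CP_0. Its call thus restates leaving out the CP_0 library where it was low, and is no support for a change of the list.

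The cluster of miR-143 and miR-145 was split. miR-143, the 2nd most abundant miRNA, had 44027, 51211 and 53685 TMM-normalized RPM in CC and 109358, 129641 and 133941 in CP_0. No CC library reached the lowest of CP_0, and the log2 difference was -1.32 (SE 0.11, adjusted p = 3.3e-05 by limma), lower under all 5 scalings. Its neighbour miR-145 had 577, 489 and 427 in CC and 423.5, 567 and 448.7 in CP_0. These ranges overlapped, and the log2 fold change of 0.053 (SE 0.14, adjusted p = 0.77 by limma) turned negative with library size only (-0.36) and upper-quartile factors (-0.36). Of the 2 members 1 was thus lower, 2 with either of these factors and 1 with RLE or without miR-21-5p. The difference between the neighbours was not tested.

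The clusters of miR-23, miR-27 and miR-24 were lower in CC for 5 of 8 members tested and higher for 0 (23.8% and 27.3% of all tested), with a median of -0.34 beside 0.0554, and the numbers were 6 and 0 with library size only or upper-quartile factors, 5 and 0 with RLE and 3 lower and 1 higher without miR-21-5p in the totals. miR-27a-3p, which targets adipogenic factors, had 857, 1045 and 1112 TMM-normalized RPM in CC and 3987, 3319 and 3493 in CP_0. The groups were far apart (log2 fold change -1.84, SE 0.11, adjusted p = 9.5e-06 by limma). The more abundant miR-27b fell less, from 39422, 35565 and 35657 in CP_0 to 24183, 26144 and 27997 in CC (-0.50, SE 0.0767, adjusted p = 0.0012 by limma), and miR-24-3p fell by 0.30 (adjusted p = 0.0047 by limma), a call lost without CP_0 replicate 1 (-0.26), with all 12 libraries in the fit (-0.14) and without miR-21-5p (-0.0352). A 6th fall, that of miR-23b-3p (-0.14), was called without CP_0 replicate 3. Of the pair miR-221 and miR-222, which share a seed, miR-221 stood at 675, 676 and 638 in CC and 1148, 1170.5 and 1055 in CP_0 and fell by 0.76 (SE 0.0667, adjusted p = 5.6e-05 by limma). miR-222 overlapped, at 492, 431 and 380.4 and 405, 531 and 398 (-0.0286, adjusted p = 0.87 by limma). With library size only or upper-quartile factors both were lower, and with RLE or without miR-21-5p 1 was.

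The 7 members of the list of miR-199 and miR-214 were all called, 3 higher and 4 lower in CC (median -0.38). Of these skeletal miRNAs, miR-214 lies in an antisense transcript of DNM3. The split was 3 and 4 by RLE, 1 and 4 with library size only or upper-quartile factors and 3 and 1 without miR-21-5p. miR-199a-5p had 3602, 3261 and 3022 TMM-normalized RPM in CC and 1411, 1521 and 1292 in CP_0, a rise of 1.23 on the log2 scale (SE 0.0884, adjusted p = 2.3e-05 by limma). The opposite arm, miR-199a-3p, had 3188, 3302 and 3413 in CC and 4723, 4256 and 3944 in CP_0, a fall of smaller size (-0.38, SE 0.0769, adjusted p = 0.004 by limma). Neither arm overlapped between the groups. The fall was not called without miR-21-5p in the totals (-0.11). The reads of miR-199a-3p equal those of miR-3604 within 1%, so these names cannot be told apart and count as 2 of the 4 falls (-0.38 for miR-3604). The largest change of the list was the fall of miR-199b (-1.45, SE 0.096, adjusted p = 1.5e-05 by limma), from 1319, 1508 and 1249 in CP_0 to 547, 487 and 459 in CC. miR-214 rose by 0.63 (SE 0.0866, adjusted p = 0.00065 by limma), from 165, 143 and 138 in CP_0 to 229, 234 and 229 in CC, but was not called with library size only (0.22) or upper-quartile factors (0.22).

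The ratio of the 5p to the 3p arm of a hairpin is free of library scaling, since both arms are counted in the same library. Of 36 hairpins listed with both arms, 18 had a mean of 10 reads or more on each and were tested, and 2 were called (11.1%) by limma. That number depends on the processing, being 6 with 5 reads added and also higher without CP_0 replicate 1. For miR-199a the log2 ratio was 0.18, -0.018 and -0.18 in the CC libraries and -1.74, -1.48 and -1.61 in those of CP_0. In chondrocytes the reads of both names were nearly equal, 29975, 26784 and 28548 on the 5p and 26528, 27121 and 32242 on the 3p arm, whereas in RMCs the 3p arm had 16904, 18853 and 16955 against 5051, 6738 and 5553. Since the 3p reads are also those of miR-3604, this ratio cannot be assigned to the miR-199a hairpin alone. The difference of 1.61 (SE 0.18, adjusted p = 0.00053 by limma) was larger than any spread between libraries of a group. For miR-27a the log2 ratio was -1.54, -1.87 and -1.92 in CC and -2.92, -2.65 and -2.87 in CP_0, a difference of 1.03 (SE 0.19, adjusted p = 0.0065 by limma), so that its 3p arm, the major one, lost more than the 5p arm. Both were called with each of the 6 libraries left out. The miR-6119 hairpin had a difference as large as that of miR-199a, 1.61, with a wider spread (adjusted p = 0.056 by limma). The arms of miR-21 and miR-455 kept ratios within the spread between libraries, with differences of 0.28 and 0.28 (adjusted p = 0.41 and 0.36 by limma). On its own, miR-21-3p, with 168, 191 and 235 reads in CC and 66, 67 and 69 in CP_0, rose by 0.44 (adjusted p = 0.032 by limma). That call was lost in 10 of 19 alternatives, among them leaving out CC replicate 2 (0.45), CC replicate 3 (0.31), CP_0 replicate 2 (0.36) or CP_0 replicate 3 (0.39). Of the 2 arms of miR-21 both were higher with TMM, RLE and without miR-21-5p in the totals, and 1 with library size only or upper-quartile factors.

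**Figure D4:**
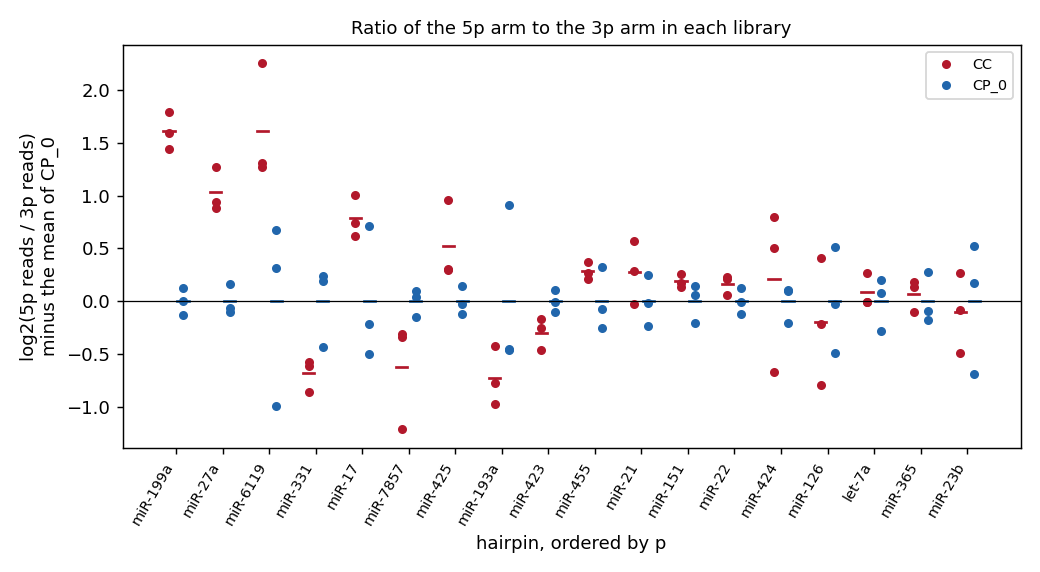
Log2 ratio of 5p to 3p reads of the 18 hairpins tested, ordered by p, as the distance of each library from the mean of CP_0, with a bar at the mean of each group. The CC points of miR-199a and miR-27a lie above all CP_0 points, with mean differences of 1.61 and 1.03.

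Several broadly expressed families changed by amounts close to the shift between scalings. Of 10 let-7 members, which restrain growth in differentiated cells, 7 were higher in CC and 0 lower (median 0.34), beside 27.3% and 23.8% of all tested, but 1 was higher and 3 lower with library size only or upper-quartile factors, 6 and 0 with RLE and 8 and 0 without miR-21-5p. let-7f, at 9665, 9423 and 8621 in CC and 6420.0, 6927 and 6109 in CP_0, rose by 0.51 (adjusted p = 0.00078 by limma), a call lost with library size only (0.096). The call of let-7a-5p was lost without CP_0 replicate 3 (0.11) and let-7i was then lower, which left 6 higher and 1 lower. Both miR-125 members were higher, miR-125a by 0.50 and miR-125b by 0.24, and 2 were with RLE or without miR-21-5p but 0 with library size only or upper-quartile factors, where miR-125b was at -0.18 and -0.17. The call of miR-125b was also lost without CC replicate 1 (0.21), CC replicate 2 (0.26), CP_0 replicate 1 (0.27) or CP_0 replicate 2 (0.23). In the miR-99/100 family 2 of 3 tested were higher and 0 lower (median 0.18), against 0 and 1 with library size only or upper-quartile factors, 1 and 0 with RLE and 3 and 0 without miR-21-5p. The small rise of miR-99a-5p (0.18, adjusted p = 0.044 by limma) was lost with any 1 of the 6 libraries left out (0.0915 without CC replicate 3 to 0.22 without CP_0 replicate 1). In the miR-26 family 2 of 3 were higher (median 0.51), namely miR-26a and miR-26c, whose reads equal each other within 1% (0.51, SE 0.0668, adjusted p = 0.00055 by limma, for both names), against 0 and 1 by library size only or upper-quartile factors, 2 and 0 by RLE and 3 and 0 without miR-21-5p.

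Other families held a few members that moved beyond that shift. The miR-30 family had 3 of 6 higher and 0 lower (median 0.35), beside 27.3% and 23.8% of all tested, with 2 and 1 by library size only or upper-quartile factors, 3 and 1 by RLE and 4 and 0 without miR-21-5p. miR-30d was the clearest, at 2099, 1951 and 1673 in CC and 845, 1032 and 826 in CP_0, without overlap (1.08, SE 0.11, adjusted p = 0.00017 by limma), and miR-30a-5p overlapped (0.23, adjusted p = 0.11 by limma). A fall of miR-30b-5p (-0.34) was called without CP_0 replicate 3. In the miR-181 family 2 of 4 were higher and 1 lower (median -0.0384), beside the same shares. The numbers were 1 and 1 by library size only or upper-quartile factors and 2 and 1 by RLE or without miR-21-5p. The uncalled member, miR-181c, passed the filter through CP_0 only, and the median of those that reached it in both groups was 0.37. miR-181a rose from 396, 433 and 367 in CP_0 to 801, 750.4 and 702 in CC (0.91, SE 0.0851, adjusted p = 8.2e-05 by limma), and miR-181b by 0.37 (adjusted p = 0.015 by limma), a call lost without CC replicate 1 (0.32) or CP_0 replicate 1 (0.38). miR-181d was the member that fell. The miR-29 family, which targets collagen mRNAs, had 0 of 4 tested called (median 0.28), with 0 higher and 1 lower by library size only, upper-quartile factors or RLE and 3 higher without miR-21-5p. Without adjustment 2 of the 4 would be called by limma, miR-29a (-0.19) and miR-29d-5p (0.55). Without CP_0 replicate 3, the former was called lower and the latter higher.

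Of 9 tested members of the list of miR-15, miR-16, miR-424 and miR-503, known for arresting the cell cycle, 0 were higher and 2 lower (median -0.28), beside 23.8% lower among all tested, against 6 lower with library size only, 7 with upper-quartile factors, 2 with RLE and 3 higher and 1 lower without miR-21-5p. miR-16b, at 404, 381 and 369.8 in CC and 401, 421 and 354 in CP_0, and miR-195, at 43.6, 41.9 and 39.2 and 33.8, 36.8 and 32.6, were not called (adjusted p = 0.82 and 0.067 by limma). The X-linked group of miR-450, miR-424 and miR-503 had 2 of 5 lower and 0 higher (median -0.37), with 4 lower by library size only, 5 by upper-quartile factors, 2 by RLE and 1 higher and 2 lower without miR-21-5p, and miR-450a fell to 122, 145.5 and 138 in CC from 201.2, 208 and 195 in CP_0 (-0.57, SE 0.0881, adjusted p = 0.0012 by limma) while miR-450b was at 0.0517 (adjusted p = 0.65 by limma). The X-linked group of miR-532 to miR-660 had 2 of 4 tested higher and 0 lower (median 0.60). With no filter all 8 listed names were tested, with 2 higher and 0 lower (median 0.22). With the filter, the group had 1 and 2 by library size only, 2 and 2 by upper-quartile factors, 2 and 0 by RLE and 3 and 0 without miR-21-5p. Its abundant members miR-532 (-0.0932) and miR-660 (0.15) were not called (adjusted p = 0.27 and 0.19 by limma), and the rises were those of miR-500 and miR-362-5p. With CP_0 replicate 3 left out, miR-532 was lower (-0.17). Of 2 tested miRNAs embedded in Hox clusters, which carry positional identity, miR-10a was lower (-0.71, adjusted p = 0.015 by limma) and miR-10b overlapped (-0.11, adjusted p = 0.55 by limma), so that 1 was lower with TMM or RLE, 2 with library size only or upper-quartile factors and 0 without miR-21-5p. In the family of miR-449 and miR-34, the latter a target of p53, 1 of 3 was lower, miR-449a, and 0 higher (median -0.20). By library size only, upper-quartile factors or RLE 2 were lower, and without miR-21-5p 0 were. miR-34a was at 151, 163 and 149 in CC and 186, 179.7 and 167 in CP_0 (adjusted p = 0.067 by limma), and miR-34c, not called over the 6 libraries (0.45, adjusted p = 0.53 by limma), is one of the 7 that set CP_0 replicate 3 apart. Without that library miR-34a was lower (-0.27).

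Markers of other cell types were read as lists, beside 27.3% higher and 23.8% lower among all tested. Of 7 blood markers 4 were tested and 0 called over the 6 libraries by limma at the adjusted threshold, and 0 had an unadjusted p below 0.05. Their median log2 fold change was 2.21. It was 3.97 over those that reached the filter in both groups, and 0.43 over all 7 with no filter. With edgeR the number called was 0 and with DESeq2 0. Their summed RPM was 1468, 1468 and 1394 in CC and 17.2, 14.4 and 4223 in CP_0. The most abundant was miR-486, whose log2 fold change of 4.87 had an SE of 2.14 (adjusted p = 0.09 by limma). The summed RPM was thus far lower in CP_0 replicates 1 and 2 than in CC, and in CP_0 replicate 3 above that of every CC library. Of the 4 tested, miR-486, miR-451 and miR-142-5p are among the 7 that set replicate 3 apart. The blood marker miR-144, which shares its precursor transcript with miR-451, had 0, 2 and 0 reads in CC and 1, 1 and 0 in CP_0. The part of blood cells in any difference between the groups was not tested.

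Of 8 muscle markers 5 were tested, 3 were higher and 0 lower, with 1 and 1 by library size only or upper-quartile factors, 2 and 0 by RLE and 3 and 0 without miR-21-5p. miR-1, the most abundant, had 838, 806 and 749 TMM-normalized RPM in CC and 454, 469.5 and 533 in CP_0 (0.72, SE 0.0832, adjusted p = 0.0003 by limma), without overlap, and miR-208a and miR-208b had 0 reads in all 6 libraries. Over the 6 libraries edgeR called 3 and DESeq2 2. The rise of miR-133c, which like miR-206 passed the filter through CC only, was not called without CP_0 replicate 3 (0.57). miR-499 passed the filter through CP_0 only. Over the muscle markers that reached it in both groups 2 were higher and 0 lower. With no filter 2 of 6 were higher and 0 lower. The summed RPM of muscle markers was 722, 726 and 755 in CC and 579.8, 540.4 and 689 in CP_0. For both endothelial markers 0 calls were made by limma at the adjusted threshold, although 1, miR-126-3p, would be called without adjustment (-0.29), and with edgeR and DESeq2 1 and 0 were called. With library size only, upper-quartile factors or RLE 1 was lower, and their summed RPM was 28.4, 35.6 and 38.5 in CC and 63.6, 47.1 and 58.6 in CP_0. Of 6 epithelial markers 4 were tested, 2 were lower and 0 higher, with 4 lower by library size only or upper-quartile factors and 2 by RLE or without miR-21-5p, and the falls were those of miR-200c and miR-205. Both passed the filter through CP_0 only, with 19, 11 and 9 reads of miR-200c and 9, 5 and 5 of miR-205 in CC, and of the 2 that reached it in both groups 0 were called. The summed RPM of epithelial markers was 15.5, 12.6 and 12.8 in CC and 34.98, 27.3 and 41.0 in CP_0, and the most abundant, miR-200a, overlapped (-0.35, adjusted p = 0.28 by limma).

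Of 12 neural markers 4 were tested, 2 were higher and 0 lower, namely miR-129 and its 3p arm, against 27.3% and 23.8% of all tested, with 0 and 2 by library size only or upper-quartile factors, 1 and 0 by RLE and 2 and 0 without miR-21-5p. With edgeR 2 were called and with DESeq2 0. The call of miR-129 was lost without CP_0 replicate 3 (0.27), and miR-129-3p, with 3, 7 and 7 reads in CP_0, passed the filter through CC only. The most abundant, miR-128, stood at 74.7, 72.0 and 74.7 in CC and 82.7, 69.1 and 73.3 in CP_0 (adjusted p = 0.87 by limma), and miR-124a, which defines neurons, had 0, 1 and 0 reads in CC and 0, 0 and 2 in CP_0. Their summed RPM was 139, 149 and 166 in CC and 230.0, 181 and 196 in CP_0. Of 7 markers of liver, gut and endocrine cells 4 were tested and 1, miR-122, was lower (median -0.0487), with 2 lower by library size only or upper-quartile factors, 1 by RLE and 1 higher and 1 lower without miR-21-5p. miR-122 is the miRNA of hepatocytes, and it had 55, 30 and 58 reads in CC and 65, 80 and 48 in CP_0. The most abundant, miR-192, was level, with 416, 396 and 420.2 in CC and 415, 414 and 397 in CP_0 (adjusted p = 0.91 by limma). The summed RPM of the list was 381, 381 and 445 in CC and 580.5, 515 and 537 in CP_0. The part of other cell types in the differences was not tested.

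The falls differed from the rises in how their reads compared before scaling. Of the 62 miRNAs lower in CC, 31 (50%) had mean reads within 1.5-fold of each other in both groups, against 0 of the 71 higher and 44 of all 260 tested (16.9%). The median ratio of reads in CC to those in CP_0 was 0.923 for the falls, 3.56 for the rises and 2.14 for all tested, beside a ratio of total reads of 2.80. A miRNA with a like number of reads in each library falls in RPM wherever a library is deeper, as was seen for miR-411a, with 264, 274 and 326 reads in CC and 286, 369 and 347 in CP_0, and for miR-2478, with 182, 275 and 370 and 320, 269 and 308. The direction of the call orders the ratio of reads by construction, so this is a description. Depth and cell type cannot be told apart, since all 3 CC libraries were deeper than all 3 of CP_0.

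For a few of these miRNAs the induced cells were set beside both groups, on TMM factors over all 12 libraries, and their differences were not tested. In the order CP_0, CP_7, CP_14 and CC (mean ± SD, n = 3), miR-19b had 37.5 ± 6.98, 14.0 ± 7.80, 38.2 ± 22.5 and 173 ± 26.7. Its level in CP_7, the shallowest group, rests on 25, 37 and 6 reads. For miR-148a the values were 19882 ± 856, 70921 ± 10098, 36375 ± 1669 and 52384 ± 432. Those of miR-27a-3p were 4687 ± 371, 5915 ± 875, 4723 ± 518 and 1465 ± 206, so that its low level was seen in CC and not at either day of induction. miR-184 stood at 121 ± 5.49, 154 ± 16.3, 778 ± 11.9 and 18.3 ± 1.42, highest in CP_14 and lowest in CC. miR-2887 stood at 33.0 ± 4.82, 32.8 ± 8.13, 45.1 ± 4.402 and 0.389 ± 0.186, and was near 0 in the CC libraries only.

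These results rest on 3 libraries of each group and on bulk RNA, in which fewer cells of a type and less RNA per cell cannot be told apart. Depth differed by group, CP_0 replicate 3 stood apart, and whether the cultures came from the same animals is not stated. The direction of changes below the shift between scalings depends on the factor chosen. Deer reads were given cattle names, some names share the same reads, and a few may count fragments of other RNA. Targets, protein and function of these miRNAs were not measured in these libraries, and no cause of any difference was tested.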

How the data were processed

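Small RNA from chondrocytes (CC) and from RMCs at 0 days of induction (CP_0) was analysed, 3 libraries each. The authors deposited RPM values under the header tpm, and the submitters' processing notes name CASAVA, bcl2fastq 1.8.4 and Bowtie without their roles. Neither the trimming nor the database of miRNA names is described there. Reads were recovered by dividing each value by that of 1 read in its library, and 100% of the values were whole within a tolerance of 0.01 read. CC libraries held 10256572, 9714090 and 9970138 reads and CP_0 libraries 2973442, 4097304 and 3636580. The filter was filterByExpr (minimum count 10, minimum total 15). The main test was limma 3.58.1 with an intensity trend, on log2 of TMM-normalized RPM plus a pseudocount of 1, two-sided, with Benjamini-Hochberg adjustment over all 260 tested and a threshold of 0.05 (R 4.3.3, TMM from edgeR 4.0.16). Arm ratios were tested by limma with 0.5 reads added. Library shares were compared by exact permutation. The scripts were tested on simulated data. The chi-square statistic of library pairs within a group reached 40.7 or more for each degree of freedom, and none was treated as a copy.

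The miRNAs named are the 10 largest rises and 10 largest falls among called miRNAs without overlap whose mean reached 50 reads in either group, the 5 most abundant of each group, 10 miRNAs of cartilage and mesenchyme, the 2 most abundant tested members of each list (1 for markers of other cell types), miRNAs with 0 reads throughout 1 group and 10 or more in each library of the other (0 were found), and hairpins with a called arm ratio. Any further names were picked once values had been seen. The members and lists were chosen with earlier results of these data known. Alternatives were scaling by RLE, by upper quartile and by library size alone, totals without miR-21-5p, edgeR's quasi-likelihood test and DESeq2 1.42.0 on recovered reads, pseudocounts of 0.5 and 5 RPM, other filters, all 12 libraries in 1 fit, a replicate block, thresholds with 2-fold, collapsed names that share reads within 1% (7 pairs) and leaving out each library. Leaving out the 7 miRNAs that set CP_0 replicate 3 apart was added after seeing the data. Mature sequences were not used here.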

Additional observations from a re-analysis of the deposited data

How the results depend on the processing

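The number of miRNAs called stayed within 1.5 times of 133 under every scaling, test, pseudocount and filter tried and with each library left out, and was 134 with edgeR's quasi-likelihood test, 118 with DESeq2, 138 with collapsed names and 144 without the 7 miRNAs that set CP_0 replicate 3 apart, an alternative chosen after seeing the data. With 2-fold added to the adjusted or to the unadjusted p it was 51, with 21 higher and 30 lower in CC. Higher and lower calls were 33 and 113 with upper-quartile factors, 30 and 112 with library size only and 110 and 38 with miR-21-5p excluded from the totals, as the shift of the median by these scalings entails. With collapsed names they were 81 and 57, and with all 12 libraries in 1 fit 79 and 49. With 1 library left out the number called ran from 107 to 164, with 57 to 84 higher and 48 to 80 lower. The number of arm ratios called was 6 with 5 reads added and, with 1 library left out, ran from 2 to 4 (4 without CP_0 replicate 1), and the cause was not tested. The replicate block gave 116 calls, 65 higher and 51 lower, and 3 arm ratios. Same-numbered libraries did not deviate together, with correlations of -0.169, -0.139 and -0.0928 for numbers 1, 2 and 3 across miRNAs, and the test was not paired.

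With miR-21-5p excluded from the totals, the sign turned for let-7i (0.12), miR-29a (0.0799), miR-16b (0.24), miR-222 (0.24), miR-10b (0.15), miR-34a (0.0629), miR-128 (0.25) and miR-532 (0.17). With all 12 libraries in 1 fit, the sign turned for let-7i (0.018), miR-16b (0.14), miR-222 (0.13), miR-10b (0.044), miR-128 (0.14) and miR-532 (0.0671). With upper-quartile factors, the sign turned for miR-100 (-0.26), miR-145 (-0.36), miR-99a-5p (-0.23), miR-125b (-0.17), miR-29b (-0.31), miR-30a-5p (-0.18), miR-195 (-0.13), miR-181b (-0.0344), miR-155 (-0.26), miR-192 (-0.40), miR-450b (-0.36) and miR-660 (-0.26). With library size only, the sign turned for miR-100 (-0.27), miR-145 (-0.36), miR-99a-5p (-0.23), miR-125b (-0.18), miR-29b (-0.32), miR-30a-5p (-0.18), miR-195 (-0.14), miR-181b (-0.0379), miR-155 (-0.26), miR-192 (-0.40), miR-450b (-0.36) and miR-660 (-0.26). With a filter of 50 reads, the sign turned for miR-100 (-0.0214), miR-145 (-0.11), miR-29b (-0.0771), miR-155 (-0.015), miR-192 (-0.16), miR-450b (-0.11) and miR-660 (-0.0163). With DESeq2, the sign turned for miR-145 (-0.00398), miR-34c (-0.0668), miR-192 (-0.0412) and miR-450b (-0.000679). With edgeR, the sign turned for miR-34c (-0.00272). With RLE factors, the sign turned for miR-192 (-0.0421). Without the miRNAs that set CP_0 replicate 3 apart, the sign turned for miR-192 (-0.0419). With 1 library left out, the sign turned at 1 end of the range of miR-145 (-0.0655 to 0.16), miR-29b (-0.0389 to 0.16), miR-16b (-0.12 to 0.0102), miR-222 (-0.13 to 0.0877), miR-34c (-0.0363 to 1.19), miR-128 (-0.099 to 0.0509), miR-192 (-0.079 to 0.0591) and miR-450b (-0.00761 to 0.11). The cause was not tested beyond the shift of the median that a scaling brings. The depth limits miRNAs with few reads, and the 35 names of the DLK1-DIO3 cluster below the filter were not part of the main test. The 6 libraries differ in depth by group, CP_0 replicate 3 stands apart, and whether libraries share an animal is not given in the sources used here.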
